A study of Mus musculus with 20 samples.

Results

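The 8 genes described here act in mitochondrial pyruvate and citrate oxidation: Pdha1, Pdhb, Pdhx and Dld of the pyruvate dehydrogenase complex, and Cs, Sucla2, Fh1 and Mdh1 of the citrate cycle and its malate shuttle. All clones annotated to them on either of 2 cDNA array designs were taken, which gave 14 clones of 15360, for 8 genes of the 6970 measured. The genes were chosen by their brown adipose values, so brown adipose ratios are given as a description, with no test. The first design carried 11 clones: 3 of Mdh1, 2 each of Pdha1, Cs and Sucla2, and 1 each of Fh1 and Pdhx. The second carried 1 clone each of Pdhb, Dld and Sucla2, which makes Sucla2 the only member on both. The rule set no threshold on the values and no filter on low values was used, so all 14 clones are described.

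The arrays compared total RNA of mice of the F line, which was selected for obesity, with that of mice of the Fob3b line, in which a lean line's alleles replace those of the F line at the Fob3b obesity locus of chromosome 15. Liver and brown adipose tissue of each line were represented by 2 RNA pools, and pools with the same number were set against each other across the lines, in both dye orientations. The first design had 4 such arrays per tissue and 2 arrays labelled as a liver pool against itself. Of these 2, the slide of Fob3b pool 1 is described as Fob3b against F. On the second, 4 arrays held liver, 2 held brown adipose tissue (only pool pair 1), 2 held liver pools of unlike number across the lines, and 2 set the liver pools of 1 line against each other. The channel labels of the 2 brown adipose arrays of the second design name Fob3b pool 1 and F pool 1, with the dyes swapped, but both slides are described as F line against F line. The channel labels were followed, and if the descriptions are right, these 2 arrays hold no difference between the lines. The sources used here do not give the age, sex and diet of the animals or how many went into a pool. Each line is 1 line, so a difference between them belongs to these lines as bred, the locus and any other difference included. The files hold ratios of the dyes, not levels, so levels cannot be compared between genes or tissues, and the tissue labels cannot be checked against marker levels. All ratios are log2, with the median spot of the array at 0, and are turned to Fob3b over F if the deposited value is red over green. The labels do not say so, and all signs would turn together if it is green over red. The number of arrays limits the precision: n is 2 pool pairs per tissue, except for brown adipose tissue on the second design, and errors (SE) are the moderated standard errors of limma. The labels do not say that the pools came from separate animals, so a p-value measures the spread between these pools. On the first design that spread was estimated over the pool pairs of both tissues together. The SE of a gene there is the same in both tissues and is not the spread of 1 tissue.

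The pyruvate dehydrogenase complex turns pyruvate into acetyl-CoA inside mitochondria. Its first enzyme is built from the alpha subunit encoded by Pdha1 and the beta subunit encoded by Pdhb. Dlat encodes the second enzyme, Pdhx the protein that tethers the third to it, and Dld the third, a dihydrolipoamide dehydrogenase that other ketoacid dehydrogenases share. Citrate synthase (Cs) joins acetyl-CoA to oxaloacetate, the ATP-forming succinyl-CoA synthetase has its beta subunit from Sucla2, and fumarase (Fh1) turns fumarate into malate. Mdh1 is the cytosolic malate dehydrogenase of the malate-aspartate shuttle, beside the mitochondrial Mdh2. In brown fat this route feeds the respiratory chain whose proton gradient is spent as heat, and exported citrate feeds fatty acid synthesis.

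The proximal promoters of the genes were read from RefSeq (assembly GRCm38.p6), from 250 bases before to 50 after the annotated start, and all 8 genes were matched. None of them is on chromosome 15. Promoters of 4 genes are printed 5′ to 3′ on the strand of the gene: Pdhb and Dld, which had the highest brown adipose ratios among the members on the second design, Sucla2, the gene on both designs, and Cs, which was positive on all 4 brown adipose arrays of the first. Capitals mark the core of the NRF1 motif, CGCANGCG, and CCAAT, on either strand (the reverse complement, such as ATTGG, on the other). Pdhb is at chr14:8172943-8173242 on the minus strand, Dld at chr12:31351422-31351721 on the minus strand, Sucla2 at chr14:73552536-73552835 on the plus strand and Cs at chr10:128337477-128337776 on the plus strand.
Pdhb: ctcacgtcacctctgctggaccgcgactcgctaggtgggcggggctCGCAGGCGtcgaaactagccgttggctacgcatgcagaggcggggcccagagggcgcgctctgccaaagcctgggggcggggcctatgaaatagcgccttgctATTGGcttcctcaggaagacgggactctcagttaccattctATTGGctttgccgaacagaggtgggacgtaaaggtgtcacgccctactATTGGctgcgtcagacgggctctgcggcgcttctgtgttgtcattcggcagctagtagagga
Dld: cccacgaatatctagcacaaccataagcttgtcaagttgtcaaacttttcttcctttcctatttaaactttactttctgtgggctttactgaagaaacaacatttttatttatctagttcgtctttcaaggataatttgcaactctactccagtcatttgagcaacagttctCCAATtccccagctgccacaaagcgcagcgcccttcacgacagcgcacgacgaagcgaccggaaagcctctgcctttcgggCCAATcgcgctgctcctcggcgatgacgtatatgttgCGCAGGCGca
Sucla2: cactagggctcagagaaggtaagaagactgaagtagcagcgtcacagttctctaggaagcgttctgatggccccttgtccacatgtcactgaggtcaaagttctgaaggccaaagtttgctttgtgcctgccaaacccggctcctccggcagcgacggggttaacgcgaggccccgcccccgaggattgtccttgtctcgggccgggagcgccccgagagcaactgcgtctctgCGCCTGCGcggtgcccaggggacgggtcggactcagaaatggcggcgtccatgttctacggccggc
Cs: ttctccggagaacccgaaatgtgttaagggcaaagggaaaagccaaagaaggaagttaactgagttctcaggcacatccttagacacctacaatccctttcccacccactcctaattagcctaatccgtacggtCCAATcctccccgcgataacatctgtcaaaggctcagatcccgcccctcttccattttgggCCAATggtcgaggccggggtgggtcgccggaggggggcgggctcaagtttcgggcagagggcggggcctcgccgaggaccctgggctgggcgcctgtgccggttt

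The NRF1 core, the motif of a factor known for driving nuclear genes of mitochondria, stood in 4 of the 8 promoters (Pdha1, Pdhb, Dld and Sucla2) and in 8.21% of the 32851 mouse promoters of 300 bases in the same table. It lay at -170 to -163 from the start in Pdha1, -204 to -197 in Pdhb, -16 to -9 in Sucla2 and 40 to 47 in Dld. CCAAT was in 6 of the 8, the exceptions being Pdha1 and Sucla2, against 37.4% of all promoters, and Pdhb held 3 matches. The GC box GGGCGG, the letters bound by Sp factors, was also in 6 of 8, all but Pdha1 and Dld, against 35.7%. The estrogen-related receptor motif CAAGGTCA was in 0 of 8 and in 1.56% of all promoters, which says only that these letters are not in this window. Both strands were searched for each motif, and matches to different motifs did not overlap in these promoters. The matches are descriptions of sequence, and binding was not measured in these data.

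On the first design, all 6 genes measured had a positive mean ratio in brown adipose tissue, between 0.23 and 0.44. The genes were chosen on these values, so the direction is no finding. Of the 11 clones, 11 had a positive mean against 57.4% of all clones, and 3 (both Cs clones and Pdhx) were positive on all 4 arrays against 2.58%. Of these 3, only Cs clone 12985 was above the median of its printing block on all 4. Cs clone 7017 was below its block on both Fob3b-green arrays, at 0.74 against 0.82 and 0.17 against 0.40. Pdhx was below its block on the Fob3b-green array of pool pair 2, at 0.00 against 0.26. The median clone was at 0.41, where the clones ran from 0.21 to 0.52. In bulk tissue, fewer cells of a type and less RNA per cell cannot be told apart.

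Among the subunits of the pyruvate dehydrogenase complex, Pdha1 had ratios of 0.39 and 0.20 on the arrays of pool pair 1 (Fob3b in red, then in green) and 1.13 and -0.19 on those of pool pair 2, and the mean was 0.38 (SE 0.21, n = 2 pool pairs). It was positive on 3 arrays and negative on 1, and its clones 1883 and 14816 had means of 0.43 and 0.34. Pdhx had 0.54 and 0.23 in pool pair 1 and 0.89 and 0.00 in pool pair 2, and the mean was 0.41 (SE 0.19). No array of Pdhx was negative, but the last was at about 0.

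Of the cycle enzymes, Cs had 0.36, 0.52, 0.65 and 0.20 on the same arrays in that order, with a mean of 0.44 (SE 0.21). It was the member with the narrowest range over arrays, and its pool pairs gave 0.44 and 0.43. The SE draws on both tissues, and the SD between the pool pairs of Cs was 0.011 here and 0.53 in liver. Sucla2 had -0.13, 0.51, 0.72 and -0.19, with a mean of 0.23 (SE 0.23), about the size of its SE. Fh1 had 0.02, 0.25, 0.98 and -0.27, with a mean of 0.24 (SE 0.21). Sucla2 was negative on 2 of 4 arrays, and the highest array of Fh1 was far above its other 3. Mdh1, the cytosolic enzyme, had 0.49, 0.41, 1.13 and -0.37, with a mean of 0.41 (SE 0.22), and its 3 clones had means of 0.30, 0.42 and 0.52.

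The 4 arrays did not weigh alike. In pool pair 1 the clones' median was 0.32 with Fob3b in red and 0.31 with Fob3b in green, so both orientations gave the same side. In pool pair 2 it was 0.89 with Fob3b in red, above 97.4% of all clones of that array and positive for 11 of 11, and -0.20 with Fob3b in green, where 8 of 11 were negative. Both arrays of pool pair 2 thus had the red channel higher for most of these clones, whichever line was in red. Without the Fob3b-red array of pool pair 2 the median of the 11 clones over the pool pairs was 0.0076, and without its Fob3b-green array 0.59. The part of the dyes in these ratios was not tested.

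**Figure D1:**
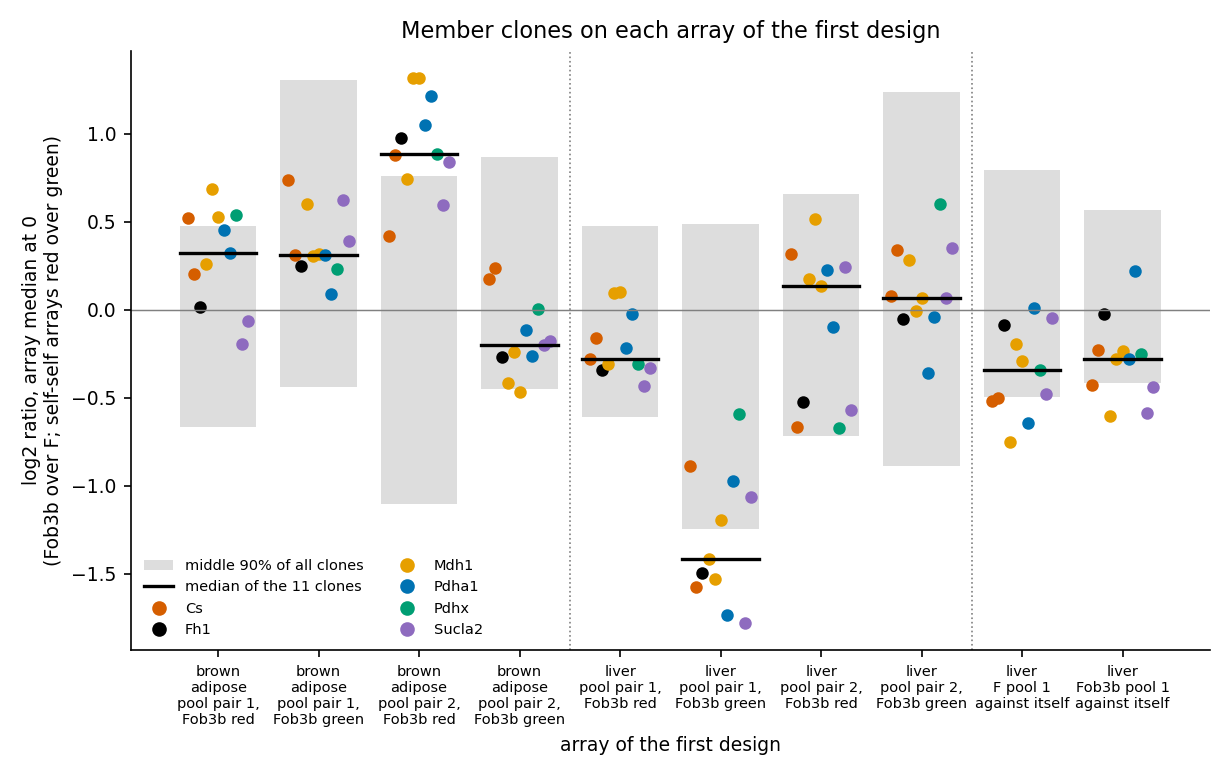
Log2 ratio (vertical axis) of the 11 clones, coloured by gene, on each of the 10 arrays of the first design (horizontal axis), with the median of the clones as a black bar and the middle 90% of all clones in grey. The median of the clones is 0.89 on the Fob3b-red brown adipose array of pool pair 2 and -1.41 on the Fob3b-green liver array of pool pair 1. It is also below 0, at -0.34 and -0.28, on the 2 arrays labelled as a pool against itself.

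On the arrays whose channel labels name 1 liver pool against itself, the clones were shifted too. By these labels no line difference exists there, but the slide of Fob3b pool 1 is described as Fob3b against F. With F pool 1 in both channels the median was -0.34 (red over green) and 10 of 11 clones were negative. With Fob3b pool 1 in both channels it was -0.28, again with 10 of 11 negative. The same 10 clones were negative on both arrays, against 35.8% of all clones, and Pdha1 clone 14816 was the exception, at 0.01 and 0.22. The most negative were Mdh1 clone 4450, at -0.75 and -0.60, and Sucla2 clone 5819, at -0.48 and -0.59. The SD among the 11 clones was 0.25 and 0.24 there, against 0.40 and 0.32 for all clones. Each of the 11 clones lay in a printing block of its own.

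The genes were chosen by brown adipose values but with earlier results of these data known. Liver is therefore not shown to be independent of the choice. In liver on the first design, the question was whether the same genes differ between the lines there. All 6 had a negative mean, from -0.60 for Fh1 to -0.24 for Pdhx, but none passed the test. Of the 11 clones 11 had a negative mean, against 54.2% of all clones, and 2 (Fh1 and Pdha1 clone 14816) were negative on all 4 arrays, against 3.44%. Neither of these 2 lay below the median of its printing block on all 4. By limma 0 of 11 had an adjusted p under 0.05, as 0.0% of the 7680 clones, and 3 of 11 had an unadjusted p under 0.05 against 3.29% of all clones. These were Fh1, Cs clone 12985 and Pdha1 clone 1883. The median clone was at -0.32.

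Fh1 had liver ratios of -0.34 and -1.50 in pool pair 1 (Fob3b in red, then in green) and -0.52 and -0.05 in pool pair 2, a mean of -0.60 (SE 0.21) with a limma p of 0.0126 that did not pass adjustment over 3838 genes (limma adjusted p = 1.0). It was the only gene of the 6 with all 4 arrays on 1 side, and the only one with an unadjusted p under 0.05 in the fit of genes, where 2.71% of all genes had one and 0.0% passed after adjustment. Relative to its printing block Fh1 was not on 1 side. The block median was -0.49 and -0.06 on the arrays where Fh1 had -0.34 and -0.05. With printing blocks centred the mean of Fh1 was -0.40. Sucla2 had -0.38, -1.42, -0.17 and 0.21, a mean of -0.44 (SE 0.23). Cs had -0.22, -1.23, -0.17 and 0.21, a mean of -0.35 (SE 0.21). For Cs and Sucla2 alike the pool pairs disagreed, with -0.73 and -0.90 in pool pair 1 and 0.02 each in pool pair 2.

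Pdha1 had -0.12 and -1.35 in pool pair 1 and 0.07 and -0.20 in pool pair 2, a mean of -0.40 (SE 0.21). Pdhx had -0.31, -0.59, -0.67 and 0.60, a mean of -0.24 (SE 0.19). Mdh1 had -0.04, -1.38, 0.28 and 0.12, a mean of -0.26 (SE 0.22). The lowest array of 5 of the 6 genes was the Fob3b-green array of pool pair 1, and Pdhx, which carries the third enzyme, was the exception.

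On that array all 11 clones were negative, from -1.78 to -0.59, with a median of -1.41 that lay above 3.35% of all clones. The other array of the same pools had a median of -0.28, and those of pool pair 2 had 0.14 and 0.07. Without the Fob3b-green array of pool pair 1 the median over the pool pairs moved from -0.32 to -0.14, and without pool pair 1 to -0.03. Without pool pair 2 it was -0.72, and Pdha1 clone 1883 (-0.98, adjusted p = 0.0386) and Sucla2 clone 5819 (-1.11, adjusted p = 0.0132) passed in limma. They are 2 of 11 member clones, against 1.82% of all clones (140 of 7680, these 2 included). There the lone liver pool pair is assumed to vary like the brown adipose pairs.

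The clones thus had opposite signs in the tissues on the first design: 11 of 11 had a negative mean in liver and a positive mean in brown adipose tissue, against 35.1% of all clones. The brown adipose values chose the genes, so this count is not read further.

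**Figure D2:**
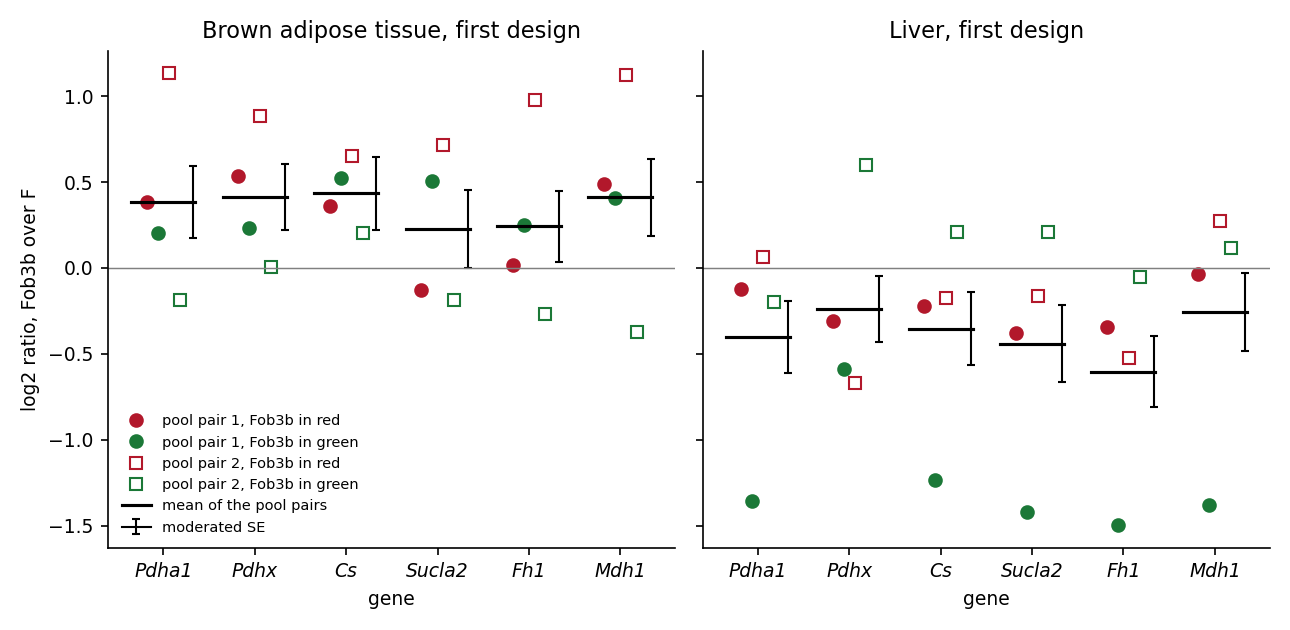
Log2 ratio of Fob3b over F (vertical axis) of the 6 genes on the first design in brown adipose tissue (left) and liver (right), with circles for pool pair 1, squares for pool pair 2, red for Fob3b in the red channel and green for Fob3b in the green channel, bars for the mean of the 2 pool pairs and error bars for the moderated SE. All means are positive in brown adipose tissue and negative in liver, and the single arrays of a gene spread over more than the distance of its mean from 0 in both tissues. The SE of a gene is the same in both panels, since the spread was estimated over both tissues together.

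On the second design Pdhb and Dld stood on the positive side in brown adipose tissue, where 1 pool pair was hybridised, so no test is possible and there is no replicate check. Pdhb had 0.47 with Fob3b in red and 1.06 with Fob3b in green, a mean of 0.76, and Dld had 0.48 and 0.56, a mean of 0.52. Sucla2 had -0.12 and 0.05, a mean of -0.04, so its orientations differed in sign. Positive on both arrays were 2 of the 3 clones, against 29.9% of all clones. A mean past 1.5-fold with the same sign on both arrays was reached on the positive side by 1 of 3, Pdhb, against 0.599% of all clones. The contrast is the one the genes were chosen on, with RNA labelled as pool pair 1 again, so nothing is read from these counts. They also rest on centring: with no centring Pdhb was at 0.40, under 1.5-fold, Dld at 0.16 and Sucla2 at -0.40. The conflict between the slide descriptions and the channels bears on every brown adipose value of the second design, which is given as Fob3b over F only by the channels.

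In liver on the second design the 3 genes were close to 0. Dld had 0.08 and -0.13 in pool pair 1 and 0.19 and 0.13 in pool pair 2, a mean of 0.07 (SE 0.09, limma adjusted p = 0.884, 95% interval -0.13 to 0.26). Pdhb had -0.10, -0.10, -0.07 and 0.12, a mean of -0.04 (SE 0.08, limma adjusted p = 0.932, interval -0.23 to 0.15). Sucla2 had 0.05, -0.11, -0.30 and -0.08, a mean of -0.11 (SE 0.09, limma adjusted p = 0.788, interval -0.30 to 0.09). By limma 0 of 3 clones passed, against 0.378% of all clones, and 0 of 3 had an unadjusted p under 0.05, against 10% of all clones. All 3 intervals include 0, and the widest bounds, -0.30 and 0.26, limit the liver difference of these clones relative to the median of the array. With no centring Dld was at -0.30, Pdhb at -0.41 and Sucla2 at -0.47, where the median of all clones was at -0.37. Whether liver and brown adipose tissue differ for these 3 genes was not tested, since brown adipose tissue had 1 pool pair.

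The 4 further liver arrays of the second design gave single values. With Fob3b pool 1 set against F pool 2, Dld, Pdhb and Sucla2 had -0.12, 0.03 and -0.14. With Fob3b pool 2 set against F pool 1 they had 0.29, 0.06 and 0.10. Between the pools of 1 line, pool 2 over pool 1, Dld had -0.12 in Fob3b and 0.03 in F, Pdhb had -0.05 and -0.30, and Sucla2 had 0.01 and 0.03. The largest of these within a line, -0.30 for Pdhb in F, exceeded every line ratio of Pdhb in liver in size.

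Sucla2 was measured on both designs, with RNA that the channel labels give as the same pools. For pool pair 1 its brown adipose mean was 0.19 on the first design but -0.04 on the second, and its liver mean was -0.90 and -0.03. The clones differ between the designs (5819 and 16947 on the first, 19172 on the second). The pathway list had 6 other genes on both designs, given here for pool pair 1 with the first design before the second. Me1, the malic enzyme that makes NADPH, had 1.23 and 1.01 in brown adipose tissue and -0.65 and -0.01 in liver. Idh1, the cytosolic isocitrate dehydrogenase, had 0.68 and 0.62 in brown adipose tissue and -1.30 and 0.18 in liver. Glud1, glutamate dehydrogenase, had 0.10 and 0.00 in brown adipose tissue and -0.61 and 0.16 in liver. Pdpr had 0.28 and 0.25 in brown adipose tissue and -0.03 and -0.05 in liver. Dlst, the succinyltransferase of the oxoglutarate dehydrogenase complex, had 0.10 and 0.12 in brown adipose tissue and -0.44 and -0.07 in liver. Suclg2, of the GTP-forming succinyl-CoA synthetase, had 0.20 and 0.01 in brown adipose tissue and -0.56 and -0.08 in liver. In brown adipose tissue the second-design values of Glud1 (0.0039) and Suclg2 (0.0079) were about 0, each with 1 array positive and 1 negative. In liver Idh1 and Glud1 differed in sign between the designs.

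Of 40 other genes of pyruvate and citrate metabolism that were listed, 29 were measured, 17 of them by first-design clones and 18 by second-design clones. Brown adipose tissue on the first design had 17 of 17 with a positive mean, with a median of 0.22 against 0.03 for all 3838 genes, of which 59.3% were positive. The highest were Me1 at 0.76 and Slc25a1, whose protein exports citrate from mitochondria, at 0.54, and the lowest were Got1, the cytosolic aspartate aminotransferase, at 0.05 and the dicarboxylate carrier gene Slc25a10 at 0.09. The 6 genes followed here had a median of 0.40 beside these. Of the 17 only Idh3a was positive on all 4 arrays. On the arrays of pool pair 2 (Fob3b in red, then in green) Sdhd had 0.90 and -0.45, while Glud1 had -0.32 and 0.56. The part of single arrays in these means was not tested.

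On the second design Dlat of the same complex and Mpc1 can be set beside Pdhb and Dld, though they were named after their values were seen. Dlat, the second enzyme, had 0.42 and 0.60 on the brown adipose arrays, a mean of 0.51, and Mpc1, a subunit of the mitochondrial pyruvate carrier, had 0.48 and 0.65, a mean of 0.57. Of the regulators, named after their values were seen, the inhibiting kinase gene Pdk3 was at -0.26, the activating phosphatase genes Pdp1 and Pdp2 were at 0.03 and -0.33, and the phosphatase's regulatory subunit gene Pdpr was at 0.25. The kinase gene Pdk1, on the first design, was at 0.29 in brown adipose tissue. Of the 18 genes of the list 15 were positive, against 56.1% of all genes, with a median of 0.21 against 0.03 for all genes. Positive on both arrays were 12 of these gene means, and 3 were negative on both. The known share, 29.9% positive on both, is over single clones and not over genes, so neither count is read further. Past 1.5-fold with 1 sign on both arrays on the positive side were Me1 at 1.01 and Idh1 at 0.62, or 2 of 18 against 0.785% of all genes, and the lowest were the mitochondrial aspartate aminotransferase gene Got2 at -0.54 and Pdp2. These counts come from 1 pool pair, so no test is possible. They also rest on centring, since with no centring the median of all clones was at -0.36 there.

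In liver 0 of 17 genes of this list on the first design and 0 of 18 on the second passed in limma, against 0.0% and 0.172% of all genes. On the first design 2 of 17 were positive, against 44.9% of all genes, and 15 were negative. An unadjusted limma p under 0.05 was reached by 0 of 17, against 2.71% of all genes. The median of the 17 was -0.19. Taken from pool pair 1 alone it was -0.40, but pool pair 2 alone gave 0.03, so the negative median was not shared by both. The genes ran from Idh1 at -0.45 to Pdk1, another inhibiting kinase gene, at 0.14. The next on these sides were Idh2, the mitochondrial NADP isocitrate dehydrogenase, at -0.31 and Idh3a, a subunit of the NAD enzyme, at 0.01. On the second design 8 were positive and 10 negative, with a median of -0.01, where 51.4% of all genes were positive. An unadjusted limma p under 0.05 was reached by 3 of 18, against 9.87% of all genes. These were Idh1 at 0.23, Glud1 at 0.17 and Got2 at -0.20, with adjusted p-values from 0.320 upwards, and Pdk3 at -0.14 stood next to Got2.

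**Figure D3:**
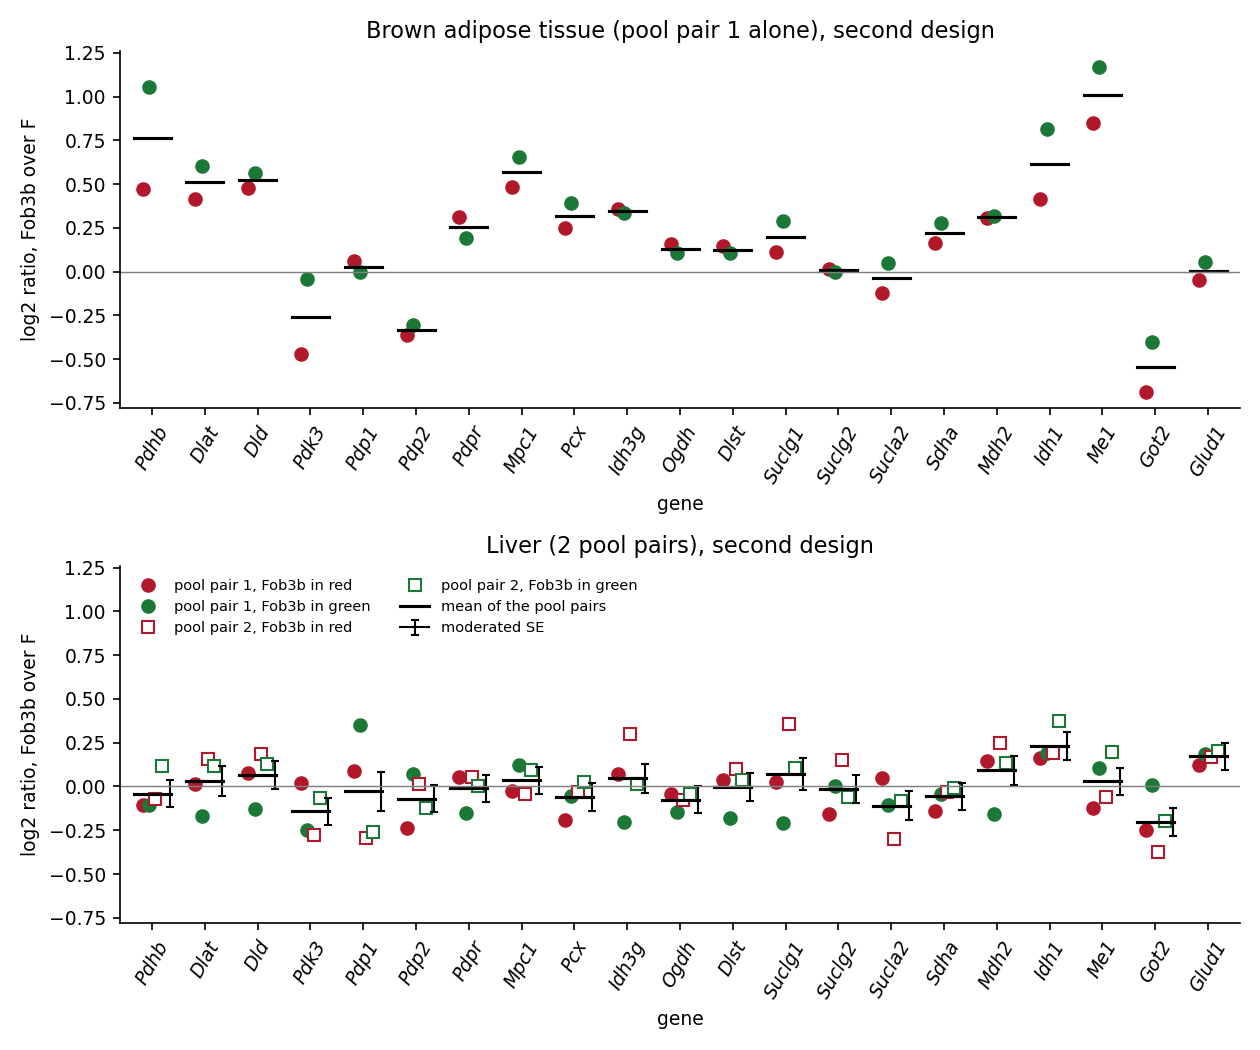
Log2 ratio of Fob3b over F (vertical axis) of the 3 genes Pdhb, Dld and Sucla2 and of 18 other genes of pyruvate and citrate metabolism (horizontal axis) on the second design, in brown adipose tissue (top, pool pair 1) and liver (bottom, 2 pool pairs), with circles for pool pair 1, squares for pool pair 2, colours for the channel of Fob3b, bars for the mean and error bars for the moderated SE. Brown adipose means run from -0.54 to 1.01 with Pdhb at 0.76 and Dld at 0.52, and liver means from -0.20 to 0.23.

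On the first design, the genes other than members whose ratios ran most like the mean of the 6 over the 8 line arrays were Eef1a1, a translation elongation factor (Pearson r 0.98), the chaperonin subunit gene Cct5 (0.97), Gapdh of glycolysis (0.97), the aldehyde reductase gene Akr1a1 (0.96) and Ndufa10 of respiratory complex I (0.96). The 8 arrays share 4 pool pairs and their dyes, so r is a description. These genes had means in brown adipose tissue of 0.18 for Eef1a1, 0.15 for Cct5, 0.42 for Gapdh, 0.20 for Akr1a1 and 0.31 for Ndufa10, and in liver of -0.58, -0.44, -0.39, -0.26 and -0.53 in the same order. All 5 were also negative on both arrays labelled as a pool against itself, from -0.47 to -0.09. Each of the 6 genes against the mean of the other 5 had r from 0.77 (Pdhx) to 0.99 (Fh1). The brown adipose arrays that chose the genes are among the 8, so this range is no finding.

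On the second design, over 6 line arrays of 3 pool pairs, Pdhb had an r of 0.92 with the mean of Dld and Sucla2, Dld 0.82 and Sucla2 0.35 with the mean of the others. Genes other than members most like the mean of the 3 were Abhd14b, Map1lc3b, an autophagosome protein gene, Tpst1, a tyrosine sulfotransferase gene, Ptp4a2, a phosphatase gene, and Meioc, all with r of at least 0.99 at 2 decimals. With so few arrays, many genes can reach such values.

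**Figure D4:**
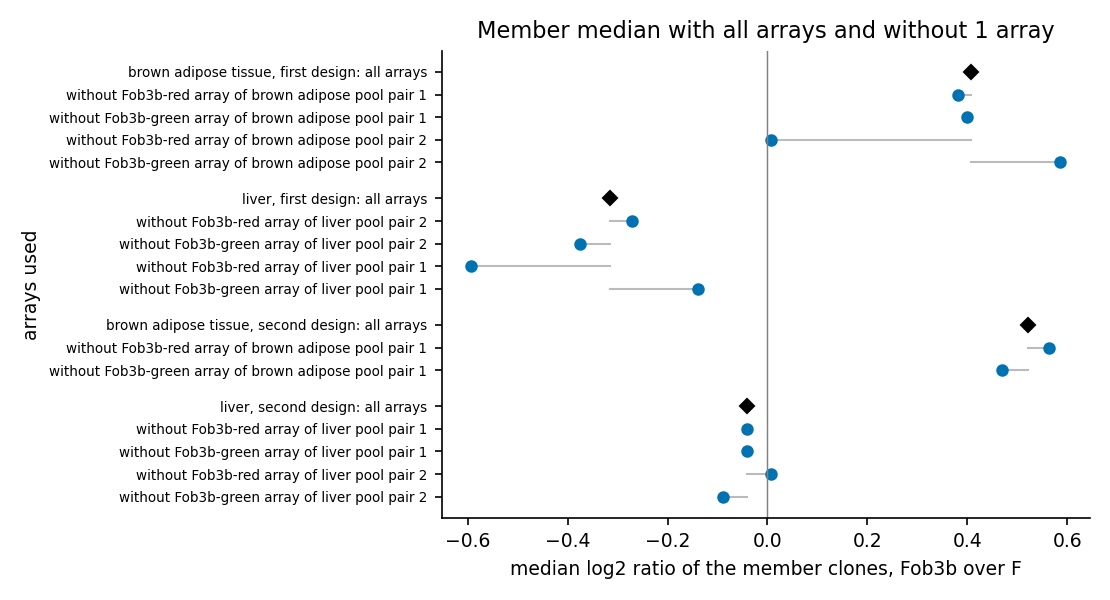
Median log2 ratio of the member clones (horizontal axis) with all arrays (black diamonds) and with 1 array left out (blue points), for the 4 combinations of tissue and design (vertical axis). On the first design the brown adipose median moves from 0.41 to 0.0076 without the Fob3b-red array of pool pair 2 and the liver median from -0.32 to -0.14 without the Fob3b-green array of pool pair 1. The brown adipose median of the second design is at 0.47 and 0.56 with 1 array left out. It is of 3 clones in 1 pool pair, so no spread between pools is shown, and with no centring it was 0.16.

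Markers of other cell types were few on these arrays, and their part in the ratios was not tested. Of 12 skeletal muscle genes 2 were measured per design, and in brown adipose tissue Tpm2 and Actn3 were at -0.58 and -0.47 on the first design, while Tpm2 and Mylpf were at 0.73 and 0.69 on the second, where Pdhb was at 0.76. For pool pair 1 Tpm2 was at -0.89 on the first design but 0.73 on the second, where the slide descriptions and the channel labels conflict. Of 10 brown adipocyte genes 2 were measured, on the second design, with Elovl3 at -0.06 and Prdm16 at -0.15, and of 8 adipocyte genes 1, Lpl, at -0.25 on the first. In liver on the first design the 4 hepatocyte genes measured of 12 were all negative, from Alb at -0.74 to Ttr at -0.15, with a median of -0.28 that moved with the members, and the macrophage gene Lyz2 was at -0.44. The 4 hepatocyte genes had a median of -0.83 in pool pair 1 and 0.20 in pool pair 2, where the 6 member genes had -0.73 and -0.01. Of 6 erythroid genes 3 were measured on the second design, and in brown adipose tissue they ran from Alas2 at -0.29 to Slc4a1 at 0.15.

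Depth cannot be given for ratios without intensities. The paired spots of a member clone differed by a median of 0.07 on each design, with a largest difference of 0.96 on the first and 0.34 on the second. The correlation of paired spots over all clones ran from 0.760 to 0.932 over the arrays of the first design and from 0.636 to 0.865 over those of the second, and the SD over clones from 0.318 to 0.631 and from 0.155 to 0.302.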

How the data were processed

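As deposited, each spot of an array has 1 log ratio of its dyes and no intensities. The deposited ratios were read as log2 values, red over green, since the labels name neither the base nor the numerator, and what the authors did in labelling, scanning and normalization is not given in the sources used. The second-design brown adipose pair and the Fob3b self-self array have descriptions that conflict with their channel labels (F against F, and Fob3b against F), and the channels were used.

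Each design held 17280 spots, of which 1920 were controls and left out. The spots of a clone, 160 rows apart in a block, were averaged after each array was centred on its median spot, giving 7680 clones. Gene names came from the array annotation supplied, updated through RefSeq. Clones matched to several genes or none were tested but not named. Both dye orientations of a pool pair were averaged, and both tissues of a design were fitted together in limma 3.58.1 (R 4.3.3), two-sided, with Benjamini-Hochberg adjustment over all clones, or over all genes after averaging a gene's clones. The code was tested on simulated data. The threshold was an adjusted p under 0.05.

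The members and lists were chosen with earlier results of these data known. Named were all members, the 2 highest and 2 lowest pathway genes of each comparison with any past the threshold, the highest and lowest gene of each cell type list and the 5 genes most like the members. Other genes were named after their values were seen. The alternatives were no centring, centring by printing block, scaling of arrays, averaging clones, a replicate block and adding crossed pools. Others were every array as its own replicate, liver fitted alone, and leaving out each array and pool pair. With every array as its own replicate, or with liver fitted alone, 0 member clones passed in liver on either design.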

Additional observations from a re-analysis of the deposited data

Results flagged for a closer look

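Pdhb on the second design had 1 liver array apart from the others. The array of pool pair 2 with Fob3b in green was at 0.12, while the other 3 were at -0.10, -0.10 and -0.07. It was picked out because its gap to the nearest array is a large share of the range of the 4 arrays. Of 15 groups of arrays looked at in this way 1 was picked out, and chance picks out about 1 in 20.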

How the results depend on the processing

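With no centring, the median of all clones lay at 0.30 in brown adipose tissue and -0.11 in liver for the first design, and at -0.36 and -0.37 on the second, and the median of the member clones moved with it, to 0.68 in first-design brown adipose tissue, and to 0.16 in brown adipose tissue and -0.41 in liver on the second. There Dld in liver turned to -0.30. Centring each printing block gave 0.36 in first-design brown adipose tissue and, in liver on the second, a median of 0.028 with Pdhb at 0.080. Scaling the arrays gave brown adipose medians of 0.34 (first design) and 0.43 (second). The cause of these shifts was not tested.

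Leaving out 1 array or pool pair, the median on the first design ran from 0.0076 to 0.59 in brown adipose tissue, and on the second from -0.088 to 0.022 in liver. Liver calls on the first design ran from 0 to 2. With 1 pool pair each, the liver means of Cs ran from -0.73 to 0.018, of Mdh1 from -0.71 to 0.20, of Sucla2 on the first design from -0.90 to 0.021, of Dld from -0.024 to 0.16 and of Pdhb from -0.10 to 0.022. Liver on the second design has no residual degrees of freedom with 1 pool pair, so these are values with no test. Of the single gene values in liver, 25 kept their side and 2 did not under other processing, and 13 did and 5 did not with 1 pool pair.

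The pools share numbers across tissues, but the labels do not say that a number marks the same animals. The deviations of pool pair 1 from the tissue mean correlated at 0.38 between liver and brown adipose tissue over 7680 clones. With the replicate block, 0 of 11 member clones passed in liver on the first design (lowest limma adjusted p 0.715). Too few arrays limit all of these ratios, and without intensities signal over background cannot be judged.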
